A study of Ursus arctos with 12 samples.

Results

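The mitochondrial ribosomal proteins were followed in the muscle of hibernating and active brown bears. They were taken by symbol, as the genes whose name starts with MRPL (large subunit) or MRPS (small subunit) and a digit, with at least 30 reads summed over the 12 libraries. Of the 30249 genes listed, 77 met the rule, 48 of the large and 29 of the small subunit, and none of the symbols fell under the minimum. They were 77 of the 17290 genes that were tested. The libraries came from 6 free-ranging brown bears (Ursus arctos) 2 to 3 years old, living in Sweden. Each bear was biopsied in a muscle of the thigh, the vastus lateralis, in winter hibernation and again when active in summer of the same year, so that the winter and summer groups of 6 held the same animals. The study set these bears beside a mouse model of muscle disuse, to look for what protects muscle from wasting, and the season comparison is the bear side of that question. The mouse data were not analysed here. The winter group thus differed from the summer group in season and in everything that goes with it (fasting, inactivity, lowered body temperature), and these cannot be told apart here.

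Mitochondria carry a ribosome of their own. It translates the few messages of the mitochondrial genome, all of which encode subunits of the respiratory chain and ATP synthase, so that muscle depends on it for oxidative energy supply. Its RNAs come from the mitochondrial genome, but its proteins are encoded in the nucleus, made in the cytosol and imported. Many have a counterpart in the bacterial ribosome and others were added in the course of evolution.

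Depth ran from 16742406 to 32140160 reads per library. The 77 genes were well covered, with 9 to 6796 reads per gene and library (median 615.5), and 74 of them had 30 reads or more in every library. The least covered, MRPL36, had 521 reads over all libraries. Counts were scaled by edgeR's TMM method and are given as CPM, the reads of a gene relative to the scaled size of its library, or as log2 CPM. Adjusted p values come from the quasi-likelihood test of edgeR, adjusted by Benjamini-Hochberg over all genes tested, and a gene was called at an adjusted p below 0.05. SE is an approximate standard error of the log2 fold change, namely its absolute value divided by the square root of the F statistic of that test. Muscle fibre markers held 131950 to 217140 CPM together in summer and 144170 to 186180 in winter. The deviations of the 77 genes from the median of their season set 4 libraries apart. In the summer library of bear 1316, 62 of the 77 lay above the median of their season, and in the winter library of bear 1511, 66 did. The summer and winter libraries of bear 1317 were low, with 13 and 15 above it.

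Among the mitochondrial ribosomal protein mRNAs, more fell than rose in winter, and over both subunits 42 of the 77 did not pass the test. Of the 48 large-subunit genes, 22 were called lower and 3 higher in winter. Of the 29 small-subunit genes (by symbol), 10 were called lower and 0 higher. Without MRPS18A, MRPS30 and MRPS36, whose proteins are found elsewhere, it was 8 of 26 lower (30.8%) and 0 higher. Over both, 41.6% were lower and 3.9% higher, whereas 19.9% of all genes tested were lower and 19.6% higher. The median log2 fold change was −0.42 for the large subunit (fold 0.746) and −0.35 for the small subunit (fold 0.784), beside −0.002 for all genes tested. With the bear as a block, the counts were 23 lower and 3 higher in the large subunit and 12 lower and 0 higher in the small, against 21.2% lower and 19.6% higher of all genes. None of the 35 calls was lost with the block, and MRPL22, MRPS18A and MRPS25 joined those that were lower. For the count of 0 higher small-subunit genes, the number at an unadjusted p below 0.05 was 0, and limma voom and DESeq2 also called 0, although they called 19.2% and 20.4% of all genes higher. The biopsies were measured in bulk, so fewer cells of a type and less RNA per cell cannot be told apart.

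The falls were modest for most genes. Among those called, the log2 fold change ran from −1.63 to −0.38 in the large subunit and from −0.82 to −0.34 in the small. A fold under 0.5 was reached by 4 genes, all of the large subunit (MRPL34, MRPL12, MRPL27 and MRPL2). At the stricter limits of the study's differentially expressed genes (adjusted p below 0.01 and a fold above 1.3 or below 0.77), 15 large-subunit and 4 small-subunit genes were lower and 2 large-subunit genes higher, against 12% lower and 12% higher of all genes. The summer and winter libraries did not overlap for 10 large-subunit and 3 small-subunit genes, each lower in winter, where 8.21% of all genes did so and 9.12% were higher without overlap. Lower in all 6 bears were 28 of the 77, of which 18 were of the large subunit, against 19.0% of all genes, and 2 were higher in all 6, against 18.4%.

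**Figure D1:**
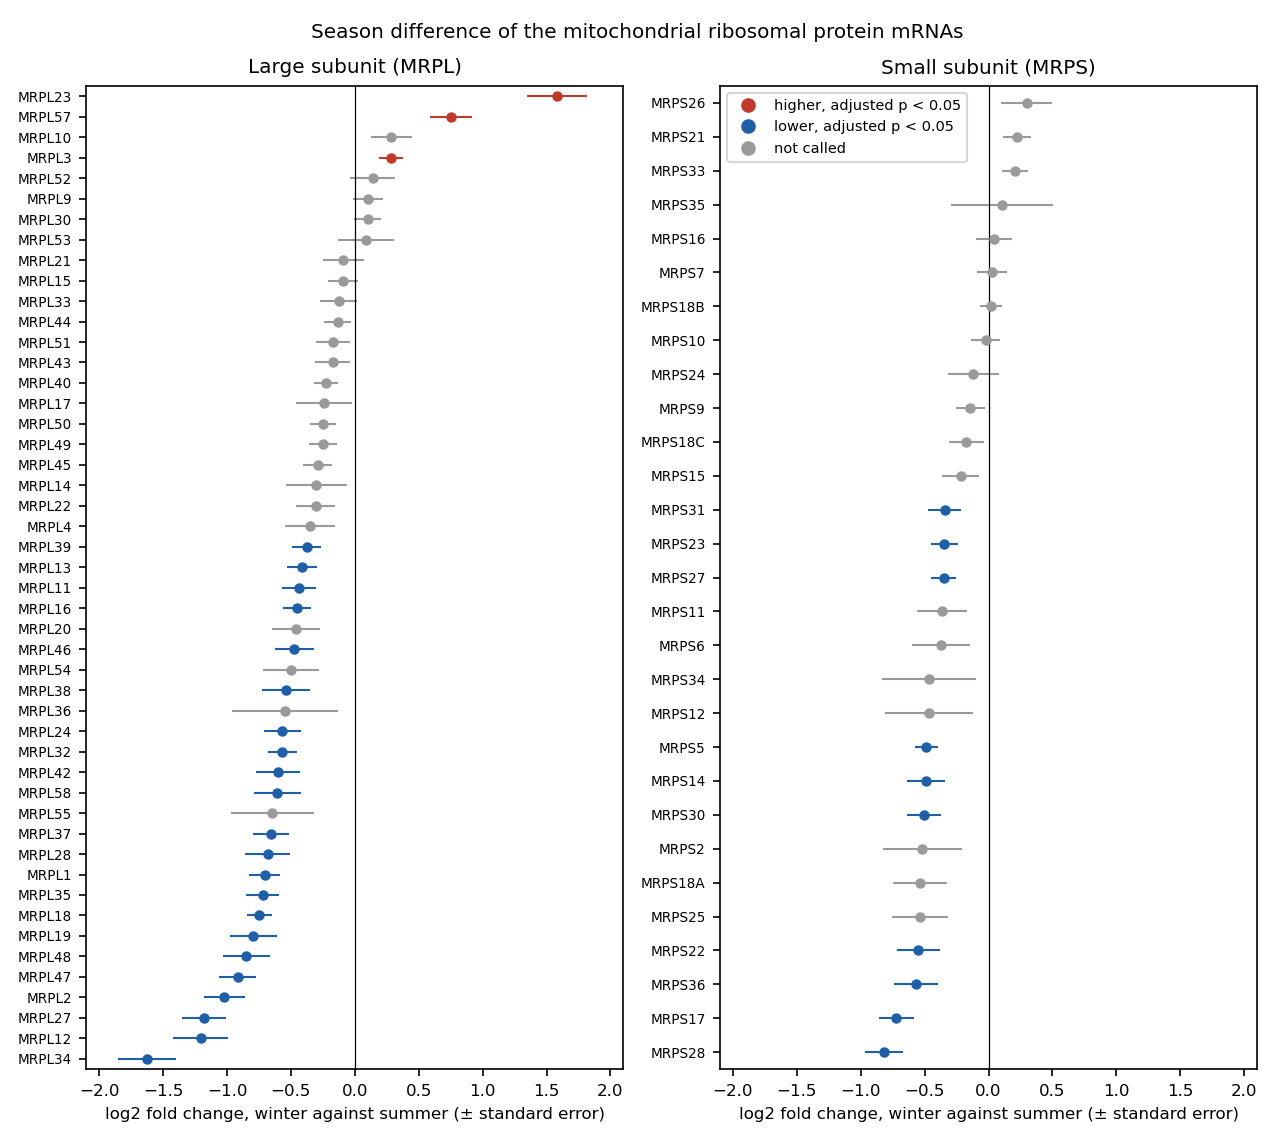
Log2 fold change of winter against summer with its approximate standard error (SE) for the 48 large-subunit (left) and 29 small-subunit (right) genes, in order of size. Blue marks the 22 and 10 genes called lower, red the 3 called higher, and grey those not called; most points lie left of 0.

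Markers of some other cell types moved with the season, and their calls stand beside 19.9% lower and 19.6% higher of all genes. The 7 fibroblast and matrix markers held 4213 to 11323 CPM together in summer and 274.3 to 1649 in winter (5 lower, 0 higher), and the 7 endothelial markers 610.1 to 941.6 and 412.4 to 475.4 (5 lower, 1 higher). The 7 adipocyte markers held 801.5 to 2198 CPM in summer and 400.5 to 893.5 in winter, with LEP at 0 in 3 summer libraries and 1 winter library. Of these markers 2 were lower (28.6%) and 1 higher (14.3%), near the shares of all genes. For the 6 macrophage markers the sums were 55.5 to 107.0 and 37.3 to 67.8 CPM (4 lower, 0 higher), and for the 6 smooth muscle and pericyte markers 478.1 to 598.6 and 251.7 to 345.3 (2 lower, 0 higher). The 3 blood markers tested held 10.1 to 75.1 and 38.1 to 65.1 CPM, with 0 called in either direction. Of the 12 muscle fibre markers, 2 were higher (TTN and NEB, 16.7%) and 3 lower (ACTA1, MB and ACTN2, 25%), near the shares of all genes. The part of these cell types in the fall of the mitochondrial ribosomal proteins was not tested. The 48 large-subunit genes together held 1605 to 2131 CPM in summer (median 1906) and 1392 to 1730 in winter (median 1493). The 29 small-subunit genes, MRPS36 among them, held 1038 to 1411 (median 1252) and 903 to 1186 (median 1039). The seasons overlapped in both, but within every bear both sums were lower in winter. In bear 1511 the small-subunit sum went only from 1197.7 to 1185.5 CPM.

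In the large subunit, genes with a bacterial counterpart formed the larger class. Of these 29 genes, 15 were lower (51.7%, against 19.9% of all genes tested) and 2 higher in winter (6.9%, against 19.6%), with a median log2 fold change of −0.45. Among the 18 without a counterpart, 7 were lower (38.9%) and 1 higher (5.56%), with a median of −0.27. The difference between the classes was not tested, and MRPL55 was placed in neither.

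MRPL34, a small protein bound to the ribosomal RNA, fell most. It was at 20.9, 40.0 and 45.9 CPM in summer (lowest, median and highest of 6 libraries) and at 7.96, 10.6 and 17.0 CPM in winter. Every winter library lay below every summer library. Its log2 fold change was −1.63 (SE 0.229, adjusted p = 0.000127), with falls of 0.77 in bear 1512 to 2.52 in bear 1305 on the log2 scale. MRPL27 and MRPL2 belong to the part of the subunit around the site where peptide bonds are formed. MRPL27 was at 33.5, 53.9 and 72.9 CPM in summer and 19.4, 22.6 and 32.7 CPM in winter, a log2 fold change of −1.18 (SE 0.171, adjusted p = 0.00016). MRPL2 was at 11.7, 13.9 and 18.0 CPM in summer and 5.67, 6.17 and 10.3 CPM in winter, a log2 fold change of −1.02 (SE 0.163, adjusted p = 0.000311). The seasons did not overlap for either, and both were lower in 6 of 6 bears.

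MRPL12 is a protein of the flexible stalk that recruits translation factors, and it is also known to bind the mitochondrial RNA polymerase. It was at 50.9, 58.9 and 74.9 CPM in summer and at 19.6, 21.8 and 49.4 CPM in winter. The highest winter value, in bear 1511, came close to the lowest summer value without reaching it, and the other winter libraries stayed well under it. The log2 fold change was −1.21 (SE 0.213, adjusted p = 0.00064), lower in 6 of 6 bears. MRPL11 lies at the base of the stalk. It was at 26.9, 29.3 and 38.8 CPM in summer and 17.7, 22.3 and 27.0 CPM in winter, with seasons that overlapped. MRPL11 had a log2 fold change of −0.43 (SE 0.134, adjusted p = 0.0192), with falls of only 0.01 in bear 1512 and 0.05 in bear 1511. It was not called without bear 1316 (adjusted p = 0.0892), bear 1317 (0.0555) or bear 1509 (0.0558), within 0.0084 to 0.0892 over all alternatives.

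MRPL47 and MRPL18 complete the lowest adjusted p values of the large subunit. MRPL47, which sits near the exit of the peptide tunnel, was at 37.6, 45.4 and 50 CPM in summer and 18.6, 21.9 and 33.9 CPM in winter. Its log2 fold change was −0.92 (SE 0.144, adjusted p = 0.00028), with bear 1509 falling least. MRPL18, whose bacterial relative binds 5S ribosomal RNA, was at 43.3, 50.9 and 56.9 CPM in summer and 26.4, 30.7 and 36.8 CPM in winter. It fell by 0.48 to 0.89 on the log2 scale over the 6 bears, with a log2 fold change of −0.75 (SE 0.101, adjusted p = 9.81e-05). Neither gene had overlapping seasons. MRPL58 is a peptidyl-tRNA hydrolase built into the ribosome, which frees stalled chains. It was at 10.6, 14.8 and 17.4 CPM in summer and 7.26, 8.47 and 14.2 CPM in winter, overlapping between seasons but lower in 6 of 6 bears. The log2 fold change of −0.61 (SE 0.181, adjusted p = 0.0165) lost its call without bear 1305 (adjusted p = 0.0605), bear 1316 (0.0625) or bear 1509 (0.0552), and its adjusted p ran from 0.00093 to 0.0625 over all alternatives.

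**Figure D2:**
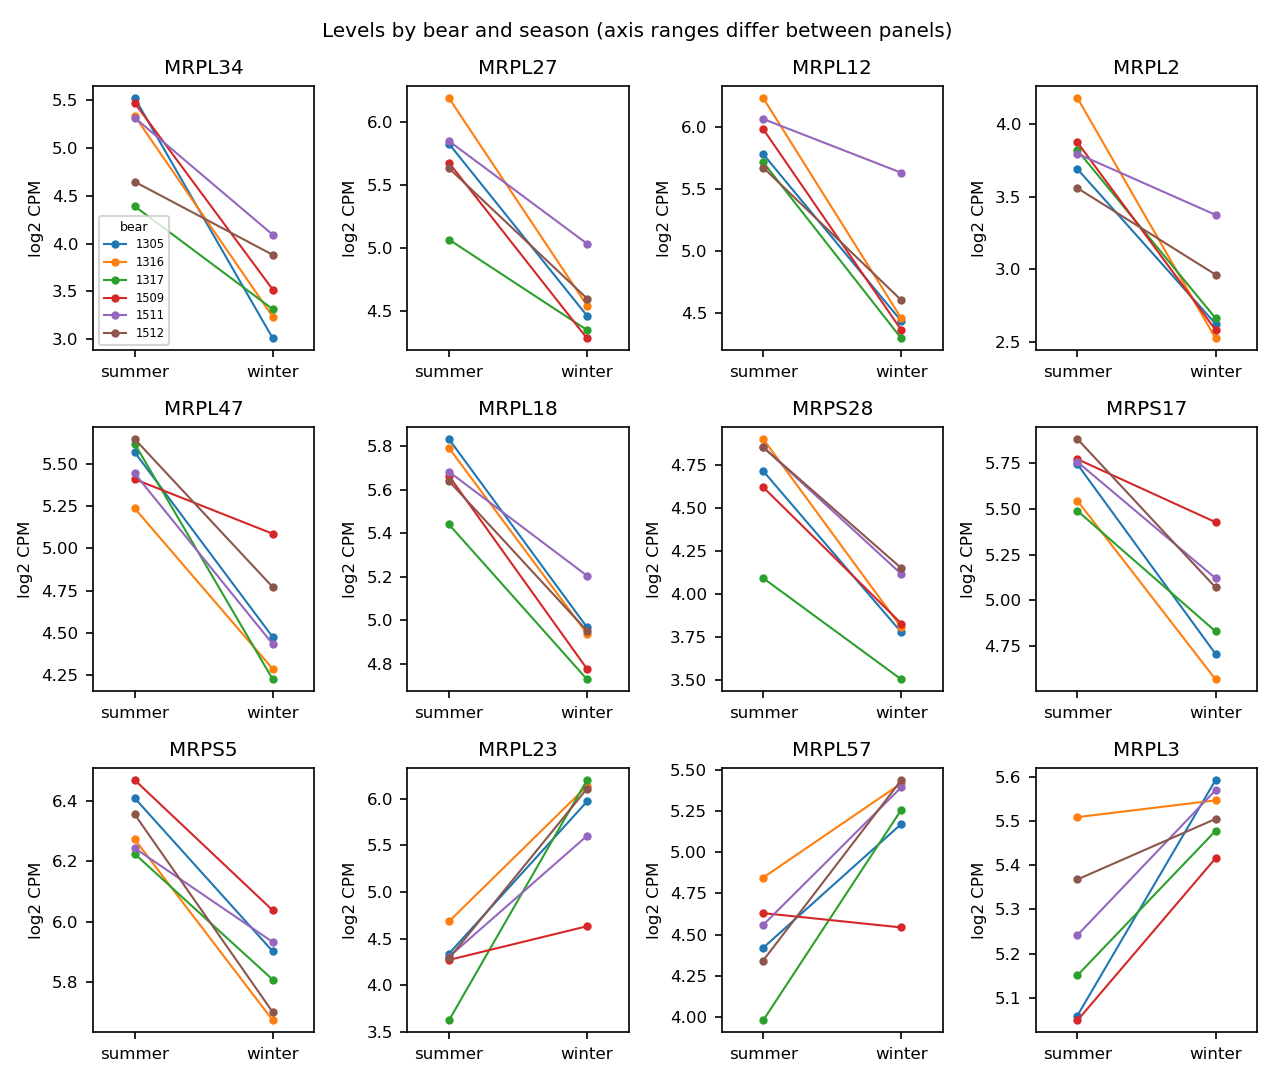
Levels in log2 CPM of 12 genes in summer and winter, with 1 line per bear and an axis range of its own in each panel. MRPL34 to MRPS5 went down in every bear, whereas MRPL23 and MRPL3 went up in every bear and MRPL57 in all but bear 1509.

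The 3 genes that rose were all of the large subunit. MRPL23, a protein at the exit of the peptide tunnel, was at 12.2, 19.6 and 25.6 CPM in summer and at 24.7, 65.8 and 73.4 CPM in winter. The seasons overlapped only through bear 1509, the lowest winter library, where the log2 CPM was 0.36 higher than in summer; in bear 1317, where it rose most, the difference was 2.58. The log2 fold change of 1.58 (SE 0.235, adjusted p = 0.000187) was about as large as the fall of MRPL34. MRPL57, a small protein without a bacterial counterpart, was at 15.7, 22.4 and 28.7 CPM in summer and at 23.2, 40.1 and 43.3 CPM in winter, with overlap between the seasons. The log2 fold change was 0.75 (SE 0.165, adjusted p = 0.00276), higher in 5 of 6 bears and 0.09 lower in bear 1509. MRPL3, a protein with a bacterial counterpart, was at 33.0, 36.6 and 45.5 CPM in summer and at 42.6, 46.0 and 48.2 CPM in winter, also overlapping. Although it was higher in 6 of 6 bears, its log2 fold change was 0.28 (SE 0.095, adjusted p = 0.0302). It was not called without bear 1305 (adjusted p = 0.138), bear 1317 (0.0719), bear 1509 (0.0509) or bear 1511 (0.0735), nor with library totals (0.0934) or without a minimum of reads (0.0595), within 0.0114 to 0.138 over all alternatives.

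The pair of large-subunit genes with the highest mean log2 CPM over the 12 libraries, a value that also rises with transcript length, did not pass the test. MRPL51 was at 134.9, 208.9 and 236.2 CPM in summer and at 148.7, 180.7 and 212.2 CPM in winter, with a log2 fold change of −0.17 (SE 0.133, adjusted p = 0.338). MRPL45, which anchors the ribosome to the inner membrane, was at 90.0, 103.0 and 114.1 CPM in summer and at 64.1, 83.2 and 103.2 CPM in winter. Its log2 fold change was −0.29 (SE 0.115, adjusted p = 0.0583). Bear 1509 was the only one of the 6 in which MRPL45 was higher in winter, and without that bear MRPL45 was called lower (adjusted p = 0.0178, and 0.0162 to 0.165 over all alternatives). The 23 large-subunit genes that were not called had log2 fold changes of −0.65 to 0.29, 18 of them negative. Of the 42 uncalled genes of both subunits, 8 had an adjusted p between 0.05 and 0.1. MRPL55, with the most negative log2 fold change of the uncalled genes, ran from a fall of 1.47 to a rise of 0.35 between bears (SE 0.323).

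In the small subunit, 3 of the 15 genes with a bacterial counterpart were lower in winter and 0 higher, with a median log2 fold change of −0.22. These 20% that were lower equal the background, since 19.9% of all genes tested were lower (19.6% higher). Of the 9 without a counterpart, 4 were lower (44.4%) and 0 higher, with a median of −0.35. At the stricter limits, 2 genes with a counterpart and 0 without were lower, against 12% of all genes. The genes without a counterpart that were lower were MRPS22, MRPS23, MRPS27 and MRPS31. Each lost its call in some fit with a bear left out. The difference between the classes was not tested. MRPS28 and MRPS18B were placed in neither class. MRPS28 had the lowest adjusted p. It was at 17.0, 27.5 and 29.8 CPM in summer and 11.3, 14.0 and 17.7 CPM in winter, and only the summer library of bear 1317 reached the winter range. It fell in 6 of 6 bears, by 0.59 to 1.10 on the log2 scale, a log2 fold change of −0.82 (SE 0.149, adjusted p = 0.000804). MRPS5 and MRPS17 have bacterial counterparts in the body of the subunit. MRPS5 was at 74.7, 79.5 and 88.6 CPM in summer and 50.9, 57.8 and 65.6 CPM in winter, a log2 fold change of −0.49 (SE 0.089, adjusted p = 0.000824). MRPS17 was at 44.8, 53.7 and 58.8 CPM in summer and 23.6, 31.0 and 42.9 CPM in winter, a log2 fold change of −0.72 (SE 0.138, adjusted p = 0.00106). For both the seasons did not overlap, and 6 of 6 bears went down.

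MRPS27, a pentatricopeptide repeat protein with an RNA-binding fold, also kept its seasons apart, but by a narrow margin. It was at 50.6, 55.7 and 67.7 CPM in summer and 40.3, 45.2 and 50.5 CPM in winter, with a log2 fold change of −0.35 (SE 0.098, adjusted p = 0.0114). Its call was lost without bear 1317 (adjusted p = 0.0535, the highest of the alternatives, which began at 0.0035). MRPS12, whose bacterial relative helps to decode the message, had few reads, at 1.53, 3.41 and 4.39 CPM in summer and 1.21, 2.20 and 3.67 CPM in winter. Its log2 fold change of −0.47 (SE 0.343, adjusted p = 0.295) did not pass the test, and the bears ranged from a fall of 1.78 to a rise of 0.68. MRPS15 and MRPS36 had the highest mean log2 CPM over the 12 libraries among the small-subunit symbols. MRPS15 was at 100.7, 115.9 and 183.1 CPM in summer and 95.4, 103.3 and 137.4 CPM in winter, and was not called (log2 fold change −0.22, SE 0.146, adjusted p = 0.252). The 19 small-subunit genes that were not called had log2 fold changes of −0.54 to 0.30, 12 of them negative.

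Some MRPS symbols name proteins that are not part of the small subunit. MRPS30 and MRPS18A are found in the large subunit. MRPS30 was at 13.6, 15.2 and 20.4 CPM in summer and 9.53, 10.9 and 14.3 CPM in winter, and despite the overlap it was lower in 6 of 6 bears, with a log2 fold change of −0.50 (SE 0.132, adjusted p = 0.0083). MRPS36 was later recognised as a component of the 2-oxoglutarate dehydrogenase complex of the citric acid cycle. It was at 168.3, 214.8 and 262.6 CPM in summer and 94.8, 158.2 and 198.9 CPM in winter, again overlapping. MRPS36 had a log2 fold change of −0.57 (SE 0.174, adjusted p = 0.019), and the fall ranged from 0.02 in bear 1509 to 1.11 in bear 1316. The call was lost without bear 1305 (adjusted p = 0.059) or bear 1316 (0.0663), with 0.000384 to 0.0663 over all alternatives.

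The paralogues MRPS18A, MRPS18B and MRPS18C, which descend from a single ribosomal protein and occupy different places, were not called in either direction. MRPS18A was at 7.38, 13.9 and 17.0 CPM in summer and 5.46, 8.90 and 11.8 CPM in winter. It was lower in 5 of 6 bears, with a log2 fold change of −0.54 (SE 0.208, adjusted p = 0.0534). With the bear as a block it was called (0.0405), as it was without bear 1317 (0.0248), in which it was higher in winter, and its adjusted p ran from 0.0174 to 0.156 over the alternatives. MRPS18B was at 51.3, 54.8 and 65.6 CPM in summer and 52.4, 56.9 and 62.9 CPM in winter, a log2 fold change of 0.02 (SE 0.086, adjusted p = 0.881). MRPS18C was at 42.6, 67.7 and 74.2 CPM in summer and 47.1, 58.1 and 66.7 CPM in winter, a log2 fold change of −0.17 (SE 0.14, adjusted p = 0.346). The seasons overlapped for all 3, and differences between the paralogues were not tested.

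The size of the fall varied between bears. The number of the 77 genes that were lower in winter was 66 in bear 1305, 68 in bear 1316, 48 in bear 1317, 61 in bear 1509, 46 in bear 1511 and 58 in bear 1512. For the large subunit, the median winter minus summer difference in log2 CPM was −0.68 in bear 1316, −0.57 in bear 1305, −0.34 in bear 1509, −0.28 in bear 1512, −0.25 in bear 1317 and −0.11 in bear 1511. It was below 0 in all 6 bears. For the small subunit, it was −0.63 in bear 1316, −0.34 in bear 1305, −0.28 in bear 1512, −0.26 in bear 1509, −0.15 in bear 1317 and 0.07 in bear 1511. Bear 1316, with the widest differences, had the high summer library described above, and bear 1511, with the smallest, the high winter library. Whichever bear was left out, 16 large-subunit and 4 small-subunit genes were called lower and 2 large-subunit genes higher. Without bear 1316, bear 1511 or bear 1317, the number of large-subunit genes called lower was 17, 23 and 20. Without bear 1305 or bear 1316, the number of small-subunit genes called lower dropped to 6 in each case, and without bear 1316 MRPS26 was called higher (adjusted p = 0.0482).

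**Figure D3:**
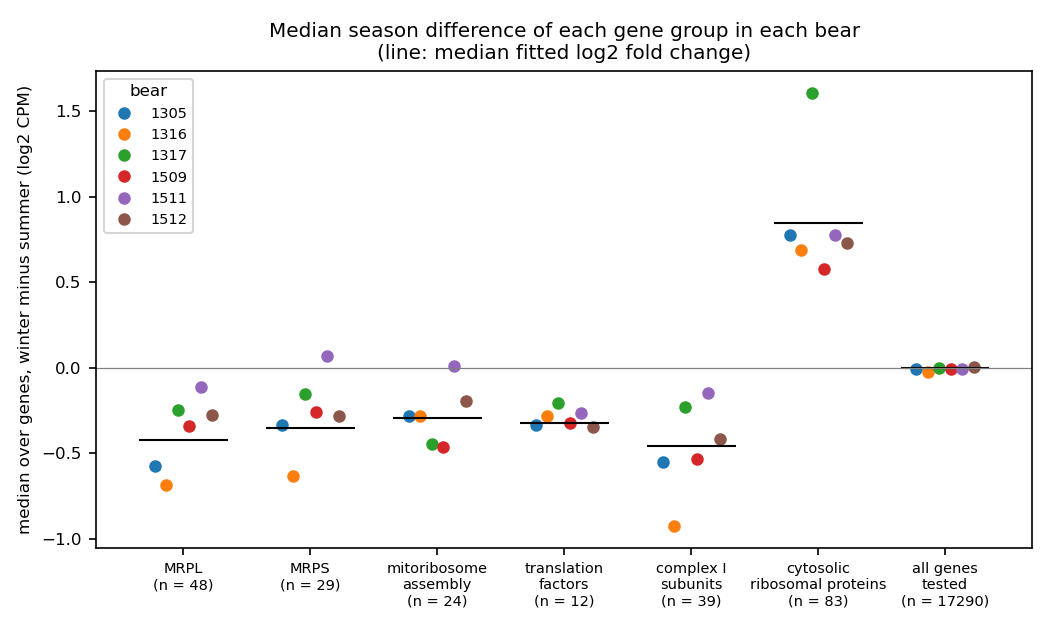
Median over the genes of each group of the winter minus summer difference in log2 CPM, with 1 point per bear, and the median fitted log2 fold change as a line. The large-subunit medians lie between −0.68 and −0.11, the small-subunit medians between −0.63 and 0.07, and the cytosolic ribosomal proteins between 0.58 and 1.61.

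The other components of the mitochondrial translation system were called lower more often than higher, where all genes tested were called lower in 19.9% and higher in 19.6%. Ribosomal proteins with other names were measured for 5 of 8 listed symbols, the rest being other names of MRPL57, MRPL58 and MRPS36, and 2 of the 5 were lower (40%) and 0 higher. AURKAIP1, a small-subunit protein, was at 11.6, 15.3 and 20.1 CPM in summer and 5.86, 7.02 and 10.6 CPM in winter, without overlap, a log2 fold change of −1.07 (SE 0.168, adjusted p = 0.00029). PTCD3, another small-subunit protein, was at 48.2, 54.0 and 59.7 CPM in summer and 26.6, 28.8 and 47.0 CPM in winter, also without overlap, a log2 fold change of −0.71 (SE 0.142, adjusted p = 0.00145). The log2 fold change of the other three was −0.30 for CHCHD1 (adjusted p = 0.083), −0.16 for DAP3 (0.204) and −0.18 for GADD45GIP1 (0.624).

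Of 24 assembly factors of the mitochondrial ribosome, 11 were lower (45.8%, against 19.9% of all genes) and 1 higher in winter (4.17%, against 19.6%), with a median log2 fold change of −0.29. DHX30, an RNA helicase needed for the large subunit, was at 23.4, 25 and 28.5 CPM in summer and 9.76, 12.3 and 16.1 CPM in winter, a log2 fold change of −1.03 (SE 0.128, adjusted p = 5.41e-05). RPUSD4, which modifies the large ribosomal RNA, was the gene that rose, from 9.74, 14.3 and 16.3 CPM in summer to 16.7, 20.3 and 28.2 CPM in winter (log2 fold change 0.67, SE 0.159, adjusted p = 0.00447). Neither had overlapping seasons. Among 12 translation factors of mitochondria, 5 were lower (41.7%) and 2 higher (16.7%, near the share of all genes), with a median of −0.32. The initiation factor MTIF2 fell by 0.71 on the log2 scale (SE 0.12, adjusted p = 0.000487), whereas GUF1, a GTPase of elongation, rose by 0.70 (SE 0.101, adjusted p = 0.000152). In the list for transcription and mRNA stability, 4 of 12 genes were lower (33.3%) and 0 higher, with a median of −0.23. TFB2M, a transcription factor of the mitochondrial genome, fell by 0.87 (SE 0.132, adjusted p = 0.000207). For MTIF2, GUF1 and TFB2M the seasons did not overlap, and 6 of 6 bears moved the same way. For the count of 0 higher, the number at an unadjusted p below 0.05 was 0, and limma voom and DESeq2 called 0, both here and for the proteins with other names. The 13 messages of the mitochondrial genome were not analysed here.

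The closest comparison within the cell is with the cytosolic ribosome, and it went the other way. Of 83 cytosolic ribosomal proteins, 65 were higher (78.3%, against 19.6% of all genes) and 0 lower in winter (against 19.9%), with a median log2 fold change of 0.84. None was lower at an unadjusted p below 0.05, in limma voom or in DESeq2, and 1 was called lower without bear 1511. The median of the cytosolic ribosomal proteins was above 0 in 6 of 6 bears, and in each bear it lay above the medians of both mitochondrial subunits. Complex I, most of whose subunits are encoded in the nucleus while others are products of the mitochondrial ribosome, went the same way as the mitochondrial ribosomal proteins. Its nuclear-encoded subunits were taken by symbol (NDUFA, NDUFB, NDUFC, NDUFS or NDUFV and a number, or NDUFAB1). This pattern can also take in genes outside the complex. Of these 39 genes, called complex I subunits here, 20 were lower (51.3%) and 0 higher (23 lower with the bear as a block). Their median log2 fold change was −0.46. At an unadjusted p below 0.05, 0 were higher, and limma voom and DESeq2 called 0 higher. NDUFA9 was at 323.5, 338.8 and 381.8 CPM in summer and at 142.5, 171.7 and 225.2 CPM in winter, with no overlap (log2 fold change −0.93, SE 0.122, adjusted p = 8.09e-05).

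**Figure D4:**
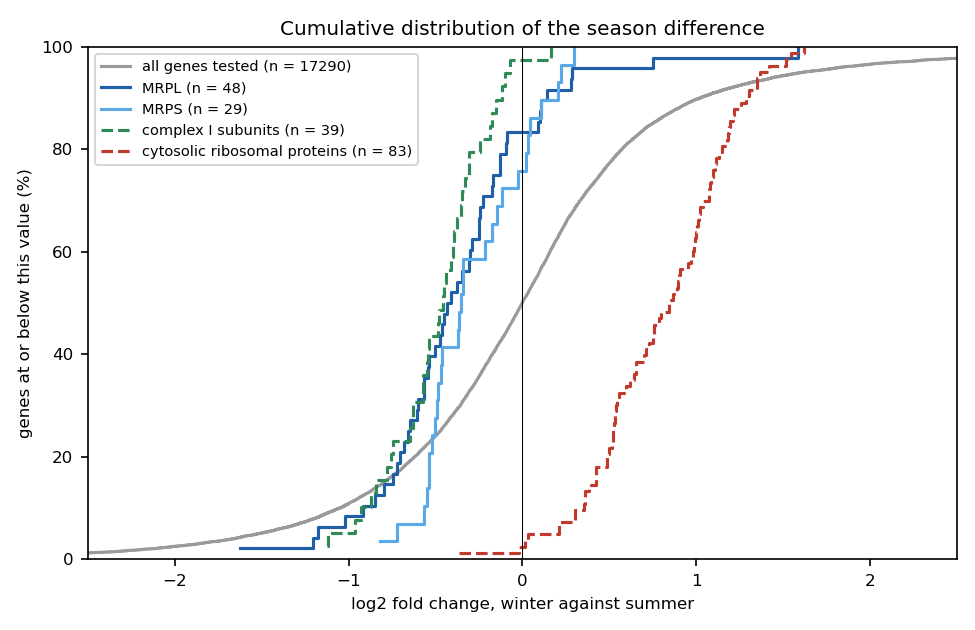
Cumulative share of genes (%) against the log2 fold change of winter against summer, for all 17290 genes tested, both mitochondrial subunits, complex I and the cytosolic ribosomal proteins. Both mitochondrial curves (medians −0.42 and −0.35) lie left of that of all genes around their medians, as does complex I (−0.46), with the cytosolic ribosomal proteins on the right (0.84).

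MRPS35, a small-subunit protein without a bacterial counterpart, stood apart for another reason and was chosen after its values were seen. It hardly differed between seasons, with a log2 fold change of 0.11 (SE 0.399, adjusted p = 0.853), but it did between animals. In summer and winter it had 20.1 and 21.8 CPM in bear 1305, 7.78 and 7.90 in bear 1316, 10.5 and 15.5 in bear 1317, 11.8 and 11.5 in bear 1509, 26.8 and 28.8 in bear 1511 and 7.55 and 5.80 in bear 1512. Bears 1511 and 1305 were highest in both seasons and bears 1316 and 1512 lowest. The standard deviation of the bear means was 0.792 in log2 CPM and that of the within-bear differences 0.302, a ratio of 2.62. The next ratio among the 77 genes was 1.42, the median was 0.565, and 98 of all genes tested (0.567%) had a ratio at least as high as MRPS35.

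**Figure D5:**
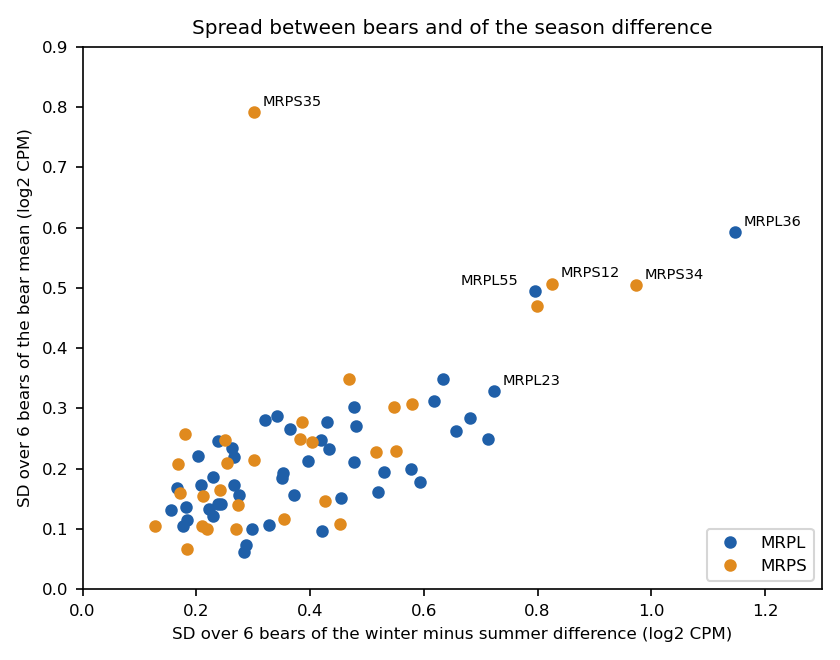
Standard deviation over the 6 bears of the bear mean (vertical) against that of the winter minus summer difference (horizontal), both in log2 CPM, for the 77 genes. MRPS35 lies at 0.792 against 0.302, above all others, while MRPL36, MRPS34, MRPS12, MRPS2 and MRPL55 lie far to the right.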

How the data were processed

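Poly-A RNA of 12 muscle biopsies, 6 winter and 6 summer, was sequenced as stranded single reads. The authors aligned the reads to ASM358476v1 with TopHat2 2.1.1 and counted them per gene with a strand-specific setting, on the strand opposite to the read, in featureCounts 1.6.2, and they deposited the counts without normalization or filter. MRPL41, named in RefSeq's UrsArc2.0 table, was listed under a LOC number with 0 reads. There the floor of 3 reads is 0.0933 to 0.179 CPM by library totals without TMM scaling (counting error only).

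Only genes with 30 reads or more, summed over the 12 libraries, were kept. After TMM scaling, winter was compared with summer in R 4.3.3 with edgeR 4.0.16 (glmQLFit and glmQLFTest), with season as the only term and Benjamini-Hochberg adjustment. The study names DESeq2 but gives no formula. Log2 CPM had a prior count of 2. Alternatives were edgeR and DESeq2 1.42.0 with the bear as a block, DESeq2, limma 3.58.1 (voom), RLE size factors, library totals, no filter, filterByExpr, stricter limits and each bear left out. After the data were seen, the fit without the winter library of bear 1509 was added. The fits were tested on simulated data.

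Per the study's methods a bear gave both of its libraries, and after subtraction of the season means these correlated at 0.0903 to 0.344 over genes. Summer and winter libraries of different bears correlated at −0.214 to 0.142. The pair of bear 1509 had the 0.0903, under the 0.122 of its summer library with the winter library of bear 1305. Its pairing thus rests on the study's methods. The pairs of the other bears, at 0.189 to 0.344, lay above every value between different bears. The lowest chi-square per gene between libraries of a season was 39, far above counting noise, so none is a copy. Lanes are not assigned in the labels, so a lane effect was not tested.

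The genes and lists were chosen with earlier results of these data known, and lists are described by counts and medians without a test. Genes given in full were the 5 with the lowest adjusted p in each direction and subunit, the 2 with the highest level in each, and MRPL11, MRPL12, MRPL58, MRPS12, MRPS18A, MRPS18B, MRPS18C, MRPS30 and MRPS36. For each comparison list it was the lowest adjusted p in each direction, of which 1 gene is not reported here. Libraries far from the other 5 of their season were found by Dixon's gap-to-range ratio at a limit of 0.625 (95%).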

Additional observations from a re-analysis of the deposited data

Results flagged for a closer look

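In 13 of 156 groups of 6 values (each of the 77 genes in each season, and the median season difference of each subunit over the bears), the highest or lowest value lay far from the other 5 by Dixon's criterion, which chance gives in about 1 of 20 groups. The winter library of bear 1511 was the one in 5 of them, always high. It was at 5.63 log2 CPM for MRPL12 (others 4.30 to 4.61), 6.58 for MRPL24 (5.83 to 6.08), 5.47 for MRPL37 (4.68 to 4.84), 4.70 for MRPL38 (3.68 to 4.04) and 2.31 for MRPS11 (1.56 to 1.77). The summer library of bear 1316 was high for 3 genes, at 5.28 for MRPL11 (others 4.76 to 4.93), 5.90 for MRPL37 (5.45 to 5.53) and 4.95 for MRPS24 (3.89 to 4.18). The winter library of bear 1509 was low at 4.32 for MRPL14 (others 4.92 to 5.27) and 4.54 for MRPL57 (5.17 to 5.44), and high at 5.63 for MRPL48 (4.55 to 4.93). The summer library of bear 1317 was low at 7.08 for MRPL51 (others 7.65 to 7.88) and 4.09 for MRPS28 (4.62 to 4.90).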

How the results depend on the processing

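No direction was reversed for any of the results or called genes under the alternatives run. With the bear as a replicate block, 23 large-subunit and 12 small-subunit genes were lower, and no call of the fit without it was lost. MRPS31, called lower with the highest adjusted p of the calls (0.048), was less stable. It was not called with RLE size factors (0.05165), no filter (0.05364), filterByExpr (0.05205) or limma voom (0.05361). Its call was also lost without bear 1305, 1317, 1509, 1511 or 1512, with an adjusted p of up to 0.137. Large-subunit genes lower in winter numbered 17 to 24 and those higher 2 to 4 with a bear or library left out, with a median log2 fold change of −0.46 to −0.31. Small-subunit genes lower numbered 6 to 10 and those higher 0 to 1, with a median of −0.39 to −0.28. Over both subunits, 23 to 34 were lower and 2 to 4 higher. Among cytosolic ribosomal proteins 57 to 69 were higher and 0 to 1 lower, and 15 to 22 complex I subunits were lower. Of all genes, 2541 to 3457 were higher and 2715 to 3682 lower. The stricter limits left 4 small-subunit genes, 19 of both subunits and 13 complex I subunits lower, and 2077 of all genes in each direction, since they ask for more by construction. With library totals, the median of all genes moved from −0.002 to −0.081 and that of the translation factors from −0.32 to −0.41. The cause was not tested. Depth limits MRPL36, MRPS34 and MRPS12, which had under 30 reads in some libraries.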
